A study of Homo sapiens with 30 samples.

Results

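In OCI-Ly1, 3628 of 21268 H3K4me3 peaks (17.1%) were short, lay away from gene ends and carried H3K27ac. OCI-Ly1 is a human cell line from diffuse large B-cell lymphoma, a tumour of B cells. A peak was taken when it lay on chromosomes 1 to 22 or X, was under 4000 bp long, was more than 5 kb from both ends of every RefSeq gene of GRCh38 and shared at least 1 bp with an H3K27ac peak. Both marks were then read at the H3K27ac peak of largest overlap, and each such pair is called a site. The sites were 69.0% of the 5259 peaks of any length that met the rule on chromosome and distance. They were paired with 3265 different H3K27ac peaks.

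The cells received JIB-04, a small molecule that inhibits the Jumonji family of demethylases, at a dose of 150 nM or of 500 nM, and control cells received the solvent DMSO at 0.01%. Chromatin immunoprecipitation with sequencing (ChIP-seq) gave 30 libraries, of which the 6 for H3K4me3 and the 6 for H3K27ac are described here, 2 for each of the 3 treatments. The libraries of H3K9me2, H3K9me3 and input were left aside. Nothing in the sources used here says whether replicates came from separate cultures, so p-values measure the spread between libraries, which may be technical.

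H3K4me3 is the trimethylation of lysine 4 of histone H3. It is laid down mainly at active promoters by SET1 and MLL-family methyltransferases and is removed by demethylases of the KDM5 family, which belong to the Jumonji enzymes. H3K27ac, the acetylation of lysine 27 by CBP and p300, marks active promoters and active enhancers. Enhancers mostly carry monomethylated lysine 4, and some strongly active ones also carry H3K4me3. In germinal centre B cells and the lymphomas that come from them, long clusters of H3K27ac lie at genes of B-cell identity.

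Away from gene ends does not mean away from every transcription start. Of the 3628 sites, 438 (12.1%), all inside genes, overlapped a RefSeq promoter window, which runs from 250 bases before to 50 bases after an annotated start, here the start of a shorter transcript within a longer gene. These 438 were longer than the other 3190 (median 2038 against 704 bp) and had more H3K4me3 per length in DMSO, with a median of 26.0 against 4.83 CPM per kb. H3K27ac per length was alike, at a median of 14.2 against 13.6 CPM per kb. CPM scale the reads of each library to a common total over the tested peaks of its mark. So the name enhancer-like does not hold for 438 sites, and some results are given with and without them. No site overlapped a microRNA hairpin.

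Sequence was at hand for the sites on a promoter window. Where a site overlapped several windows, only the window nearest to the middle of the site was read, as at ANKRD28, which overlaps 2. The 4 windows below belong to sites described further on that passed the test of H3K4me3 at 500 nM, with 2 rises (ANKRD28, MAP2K6) and 2 falls (SYK, KDM2B). Each is 300 bases of RefSeq sequence on GRCh38.p14, written 5′ to 3′ on the strand of the gene, with every CG dinucleotide in capitals because CpG-rich starts are known to carry the most H3K4me3. ANKRD28 is chr3:15797930-15798229 on the minus strand, MAP2K6 is chr17:69502012-69502311 on the plus strand, SYK is chr9:90827170-90827469 on the plus strand and KDM2B is chr12:121467329-121467628 on the minus strand.
ANKRD28: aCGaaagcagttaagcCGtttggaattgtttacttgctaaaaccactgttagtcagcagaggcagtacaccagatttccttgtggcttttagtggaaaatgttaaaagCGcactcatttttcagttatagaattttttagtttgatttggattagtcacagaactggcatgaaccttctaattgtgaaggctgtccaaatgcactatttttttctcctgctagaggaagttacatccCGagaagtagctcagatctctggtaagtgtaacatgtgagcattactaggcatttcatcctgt
MAP2K6: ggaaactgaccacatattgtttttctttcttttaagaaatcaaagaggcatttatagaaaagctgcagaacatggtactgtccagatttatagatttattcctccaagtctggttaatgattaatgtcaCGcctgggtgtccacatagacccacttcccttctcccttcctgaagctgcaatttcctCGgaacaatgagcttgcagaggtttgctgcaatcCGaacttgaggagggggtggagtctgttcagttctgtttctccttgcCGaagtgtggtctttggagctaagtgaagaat
SYK: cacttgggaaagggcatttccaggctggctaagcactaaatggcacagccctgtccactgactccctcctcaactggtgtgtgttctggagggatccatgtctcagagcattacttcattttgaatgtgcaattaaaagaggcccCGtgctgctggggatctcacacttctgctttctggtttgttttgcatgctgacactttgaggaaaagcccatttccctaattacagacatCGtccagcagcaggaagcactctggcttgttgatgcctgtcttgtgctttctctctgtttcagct
KDM2B: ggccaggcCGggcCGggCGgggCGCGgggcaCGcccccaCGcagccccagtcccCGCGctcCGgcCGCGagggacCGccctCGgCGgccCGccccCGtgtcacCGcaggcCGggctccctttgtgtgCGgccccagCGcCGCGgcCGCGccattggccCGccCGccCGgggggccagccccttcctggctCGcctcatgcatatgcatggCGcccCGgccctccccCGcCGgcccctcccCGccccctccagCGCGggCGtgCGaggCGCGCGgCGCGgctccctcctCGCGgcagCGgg

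The KDM2B window held 46 CG dinucleotides, the ANKRD28 and MAP2K6 windows 4 each and the SYK window 2. The KDM2B site was also the strongest of the 4 in DMSO, at 90.2 and 87.7 H3K4me3 CPM in the DMSO libraries. The order of the others did not follow the CG count. The SYK site, with the fewest, came next at 68.8 and 61.7 CPM, and the ANKRD28 and MAP2K6 sites had 1.39 to 2.55 CPM. Counted on either strand, since CG reads the same on both, 96.0% of all 35116 RefSeq windows held at least 1 CG, with a median of 14 per window. Among the 438 windows read in sites, 1 for each site, the median was 22. It was 23 in the 69 windows whose site had higher H3K4me3 at 500 nM and 18 in the 103 whose site had lower H3K4me3.

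Of all sites, 2604 (71.8%, 95% Wilson interval 70.3% to 73.2%) lay inside 1708 genes and 1024 lay between genes. Exons and introns were not told apart. The median length was 803.5 bp, with a range of 232 to 3990 bp, and the median distance to a gene end was 15930 bp. The paired H3K27ac peak was longer, with a median of 1832 bp, and 56.4% of the sites lay wholly within it. In 265 cases an H3K27ac peak held more than 1 site, up to 7, so these sites share 1 H3K27ac value. The H3K27ac peak itself reached within 5 kb of a gene end in 183 cases.

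The sites had less H3K4me3 than peaks near gene ends, and H3K27ac at a like level. The median H3K27ac peak of a site held 22.7 CPM over a median of 1832 bp, and that of the 11712 peaks under 4000 bp near a gene end 20.6 CPM over 1364 bp. Per length, the median H3K4me3 level in DMSO was 5.39 CPM per kb, compared with 30.3 for those peaks within 5 kb of a gene end that carry H3K27ac, and 3.45 for the 1520 peaks away from genes without H3K27ac. The median mean count per site was 43.25 reads for H3K4me3, against 295 over all peaks. Counting error is therefore large at many sites, and 3374 of the 3628 passed the filter on low counts. H3K4me3 and H3K27ac levels showed almost no rank correlation (Spearman's rho -0.005 over 3342 sites, which share the 12 libraries).

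The strongest H3K4me3 per length stood at NDUFAF6, SND1 and RABGEF1, and at none of these 4 sites did it pass the test at 500 nM against DMSO. NDUFAF6, an assembly factor of mitochondrial complex I, holds the site chr8:95024358-95026596, with 196 and 208 CPM in DMSO, 200 and 208 at 150 nM, and at 500 nM 188 and 196. Another site in it, chr8:95089654-95091825, lies in stronger H3K27ac, on average 1116 CPM in DMSO and 998 at 500 nM, and there H3K4me3 fell from 73.2 and 72.5 to 62.9 and 51.3 CPM (log2 fold change -0.34 ± 0.06, adjusted p = 1.87e-06). RABGEF1, an exchange factor for the small GTPase Rab5, has 2 of the strongest sites (chr7:66680999-66683295 and chr7:66739442-66742034), at 160 to 178 CPM in DMSO and 156 to 171 at 500 nM.

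Facts of the whole data set bear on these values as follows. Reads in peaks numbered 9686420 to 12327122 per H3K4me3 library and 4360660 to 5410292 per H3K27ac library. The 150 nM H3K4me3 libraries differed from each other by less than sampling noise (chi-square per degree of freedom 0.929), but so did DMSO replicate 1 and 150 nM replicate 1 (0.952), and all were kept as separate libraries. Among the H3K27ac libraries, DMSO replicate 2 and 150 nM replicate 2 stood apart, with 71.5 and 45.9 CPM on 5 unplaced contigs against 322 to 446 in the others. B-cell identity was marked by H3K4me3 at the ends of 6 of 6 B-cell genes and 3 of 4 germinal centre genes (MME had no peak), with 1253 to 1291 CPM summed over the B-cell genes in the DMSO libraries, against 26.0 to 28.4 for T-cell genes, where CD3E and CD2 had no peak, 9.72 to 11.8 for myeloid genes, where LYZ, CSF1R and ITGAM had none, and 70.0 to 72.3 for epithelial genes, almost all at EPCAM. Neither erythroid gene had a peak.

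At 500 nM against DMSO, H3K4me3 rose at 507 of the 3374 tested sites (15.0%) and fell at 667 (19.8%). Over all 20402 tested H3K4me3 peaks, 20.7% rose and 18.7% fell. Of the 3374 sites, 192 gained at least 1 on the log2 scale and 183 had a value of -1 or less, called or not. Over all 20402 tested peaks, 1616 gained at least 1 and 433 had a value of -1 or less. The median of the sites was 0.01, near that of all tested peaks (-0.01). A call is an adjusted p under 0.05 in edgeR's quasi-likelihood test with Benjamini-Hochberg adjustment over all tested peaks of the mark. The split depends on how libraries are scaled. With loess offsets that level out trends with abundance, 279 sites rose and 930 fell. The median of the sites was then -0.16, where that of all tested peaks was -0.005. DESeq2's Wald test called fewer, 142 higher and 360 lower. Shares of calls over all peaks are not given here for loess offsets or for DESeq2's test.

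The sites were set beside other H3K4me3 peaks of like level. All tested peaks were put into 5 classes of equal size by mean H3K4me3 level. In class 3, the middle one, 36.2% of 658 sites were lower at 500 nM, against 18.02% of 2774 peaks near a gene end that carry H3K27ac and 7.32% of 82 peaks away from genes without it. For rises the order was the other way round: 21.3% of the sites in that class, 24.0% of the gene-end peaks and 64.6% of the far peaks without H3K27ac were higher. In class 1, the weakest, the order differed: 13.3% of 1236 sites rose and 5.50% fell, against 12.6% and 8.02% of 835 gene-end peaks and 36.2% and 3.44% of 756 far peaks without H3K27ac. The difference between these groups of peaks was not tested.

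**Figure D1:**
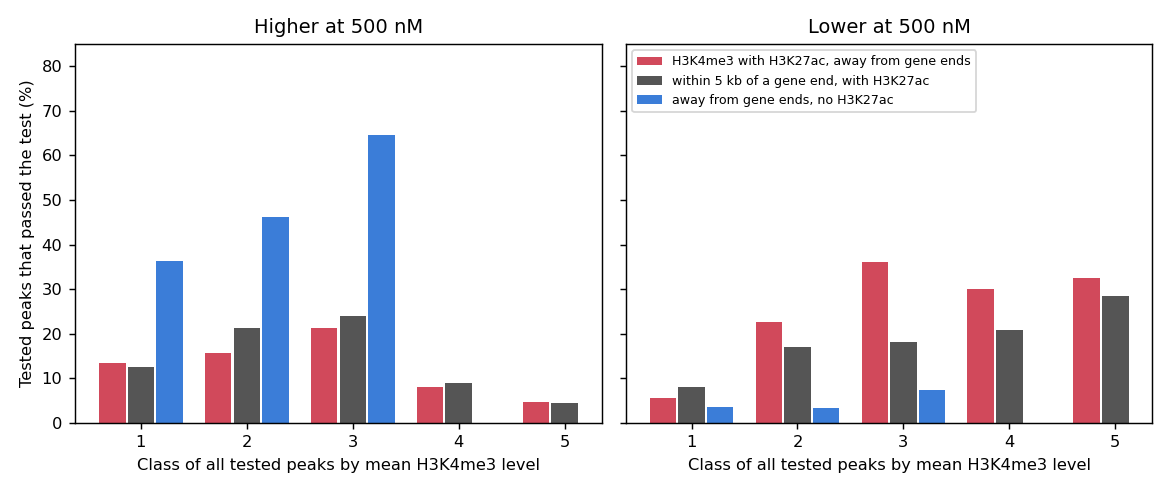
Percentage of tested H3K4me3 peaks that were higher (left) or lower (right) at 500 nM than in DMSO (edgeR, adjusted p under 0.05), by class of all tested peaks from the weakest (1) to the strongest (5) mean H3K4me3 level. Red bars are the sites described here and grey bars are peaks within 5 kb of a gene end with H3K27ac. Blue bars are peaks away from gene ends without H3K27ac, and bars are drawn where a class holds at least 20 peaks. In class 3, 36.2% of the sites were lower, above both other groups, and the distance to the gene-end peaks was widest there.

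The 8 largest rises were taken among called sites with a mean level above the median of tested sites, which a site low in DMSO can pass through its level at 500 nM. They averaged 1.60 to 4.72 CPM in DMSO, where the median site had 4.56. PLCG2 encodes phospholipase C gamma 2, which acts directly downstream of the B-cell receptor. Its site chr16:81841738-81843324 had 1.55 and 2.06 CPM in DMSO, 1.70 and 1.86 at 150 nM, and at 500 nM 18.7 and 19.3, a log2 fold change of 3.40 ± 0.19 (SE, adjusted p = 9.74e-23). The DMSO and 150 nM libraries overlapped and both 500 nM libraries lay far above them. H3K27ac was already present there, at 51.3 and 58.0 CPM in DMSO, and stood at 67.6 and 67.5 CPM at 500 nM (log2 fold change 0.30 ± 0.12, adjusted p = 0.261).

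The gene PLCG2 has 11 sites, 10 inside the gene and 1 before it, of which 3 rose and 1 fell. Those inside the H3K27ac peak of 20187 bp that lies upstream of the risen site ran from -0.49 to 0.71 in log2 fold change. The strongest of them, chr16:81820271-81823572, had 24.4 ± 3.38 CPM in DMSO and 22.2 ± 1.52 at 500 nM (SD, n = 2; log2 fold change -0.14 ± 0.09, adjusted p = 0.229). The change at that site did not pass the test.

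ANKRD28, a regulatory subunit of protein phosphatase 6, holds the site chr3:15794763-15798167, which overlaps the promoter window printed above. H3K4me3 there was 2.53 and 2.55 CPM in DMSO, 3.05 and 3.07 at 150 nM, and at 500 nM 19.6 and 21.4 (log2 fold change 3.00 ± 0.17, adjusted p = 2.40e-22). MAP2K6, a kinase that activates p38, had at chr17:69501954-69503513 1.39 and 1.87 CPM in DMSO, 2.51 and 3.07 at 150 nM, and at 500 nM 12.3 and 10.9 (log2 fold change 2.85 ± 0.22, adjusted p = 1.49e-16). At both sites the 150 nM libraries lay between the others, above DMSO, but close to it. The promoter window read at each of them is poor in CG.

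TBC1D16, a GTPase-activating protein for Rab proteins, had at chr17:79991932-79994197 3.18 and 2.06 CPM in DMSO, 2.42 and 1.77 at 150 nM, and at 500 nM 21.6 and 18.5, and its log2 fold change was 2.91 ± 0.18 (adjusted p = 4.59e-21). SLC39A9, a zinc transporter, rose at chr14:69442073-69443616 from 1.14 and 2.06 CPM in DMSO to 12.8 and 10.6 at 500 nM (log2 fold change 2.90 ± 0.23, adjusted p = 2.70e-16). The noncoding gene LOC124900954 rose at chr5:32531026-32532982 from 4.08 and 3.44 to 24.9 and 26.2 CPM (log2 fold change 2.75 ± 0.14, adjusted p = 1.08e-23). In these 3 sites H3K27ac rose too, as given below. The remaining large rises were in PTP4A3, a protein tyrosine phosphatase (chr8:141417414-141418368, from 1.39 and 2.36 to 9.78 and 11.1 CPM), and between genes nearest to CCDC32 (chr15:40511077-40512114, log2 fold change 2.24).

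Falls began from both strong and weak H3K4me3. Named falls, like named rises, had a mean level over all libraries above the median of tested sites. The steepest of these was in AHNAK, a very large scaffold protein, where chr11:62499411-62500336 had 7.27 and 6.19 CPM in DMSO, 7.61 and 6.61 at 150 nM, and at 500 nM 1.28 and 0.613 (log2 fold change -2.78 ± 0.29, adjusted p = 4.44e-12). TBC1D22A, of the same family of Rab regulators as TBC1D16, fell from a much higher level. At chr22:46773855-46777500 it had 64.8 and 55.9 CPM in DMSO, 72.8 and 64.4 at 150 nM, and at 500 nM 11.6 and 8.07 (log2 fold change -2.60 ± 0.10, adjusted p = 5.54e-31). The 500 nM libraries lay far below the other 4 libraries at both sites.

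BTG4, of the BTG and Tob family of antiproliferative proteins, holds 2 sites that fell about alike in separate H3K27ac peaks. The larger, chr11:111434732-111437207, went from 86.2 and 81.7 CPM in DMSO to 21.3 and 18.1 at 500 nM (log2 fold change -2.09 ± 0.07, adjusted p = 1.63e-33), and the smaller, chr11:111428399-111429194, from 9.31 and 8.55 to 2.30 and 2.35 (log2 fold change -1.94 ± 0.22). Their H3K27ac was among the strong ones, at 699 and 728 CPM in DMSO against 663 and 656 at 500 nM for the larger, and 369 and 384 against 321 and 318 for the smaller. Neither H3K27ac change passed the test (adjusted p = 0.539 and 0.133).

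RIN3, an exchange factor for Rab5, fell at chr14:92539310-92540852 from 11.8 and 11.5 CPM to 2.47 and 3.57 (log2 fold change -1.97 ± 0.19). CSTPP1, a subunit of a tubulin polyglutamylase complex, fell at chr11:47106981-47110318 from 47.5 and 41.3 to 14.2 and 10.2 CPM (log2 fold change -1.85 ± 0.10). Sites between genes fell nearest to MAP3K8, a kinase of NF-kB and ERK signalling (chr10:30422703-30424123, -1.72), and to GALC, the lysosomal enzyme galactosylceramidase (chr14:87815067-87816218, -1.71). At all 16 of these sites the mean at 150 nM lay nearer to DMSO than to 500 nM, and all 16 kept their direction and call in each alternative run.

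**Figure D2:**
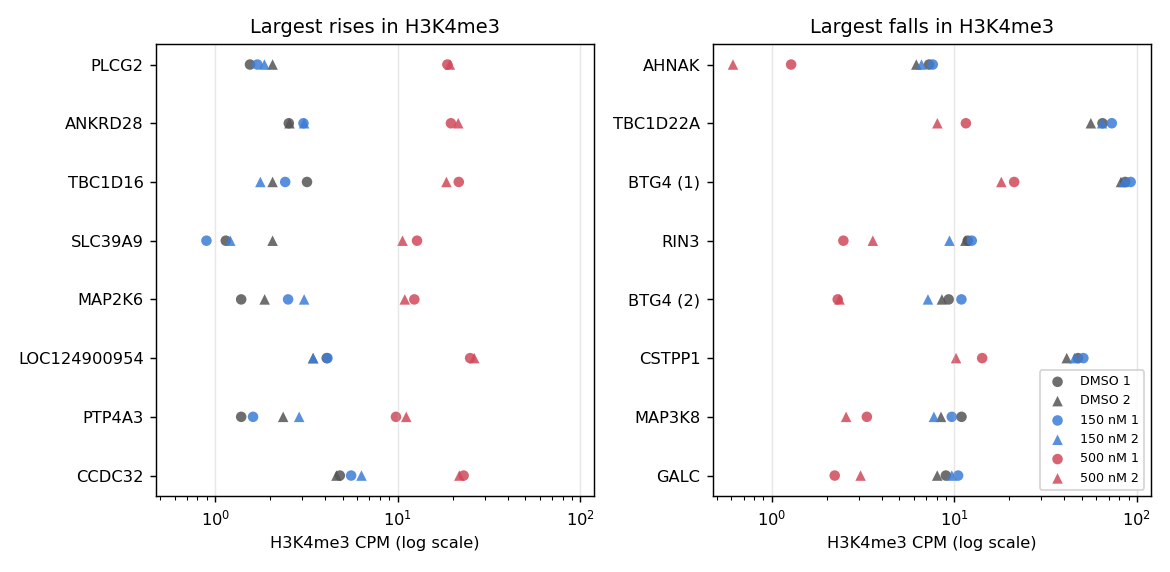
H3K4me3 CPM (log axis) in each of the 6 libraries at the 8 sites with the largest rises (left) and the 8 with the largest falls (right) at 500 nM against DMSO, among called sites whose mean level over all libraries was above the median of tested sites. Grey marks DMSO, blue 150 nM and red 500 nM, with circles for replicate 1 and triangles for replicate 2; the red points stand apart from all others at every site, as at PLCG2 (18.7 and 19.3 CPM against at most 2.06).

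Sites that rose and sites that fell differed in their H3K27ac level. The 3342 sites with both marks tested were put into 4 classes of equal size by the level of their H3K27ac peak, a split chosen after the data were seen. In the weakest class, with a median of 4.84 H3K27ac CPM in DMSO, H3K4me3 rose at 27.6% and fell at 6.70% of the sites, with a median log2 fold change of 0.22. In the strongest class, with a median of 146 CPM, it rose at 6.10% and fell at 35.5%, with a median of -0.24. The classes between had medians of 0.01 and -0.01.

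The H3K4me3 level itself differed little along these classes, with medians of 3.74, 6.32, 4.51 and 4.00 CPM in DMSO, and H3K27ac hardly moved, with median log2 fold changes of 0.03, -0.04, -0.02 and -0.03. The Spearman correlation between the H3K4me3 change and the H3K27ac level was -0.31 across the 3342 sites, which are not independent. Along classes of the H3K4me3 level itself, falls grew from 4.90% to 34.1% while rises went from 12.7% to 16.1%. Sites of like H3K4me3 level were also set side by side, in 4 classes by that level. From the weakest to the strongest H3K27ac, the median change went from 0.48 to -0.003 in the class weakest in H3K4me3, then from 0.28 to -0.10, from 0.17 to -0.44, and from 0.09 to -0.36 in the strongest. The classes between did not keep the order in the weaker H3K4me3 classes, with 0.33 and 0.35 in the weakest and 0.08 and 0.22 in the next.

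**Figure D3:**
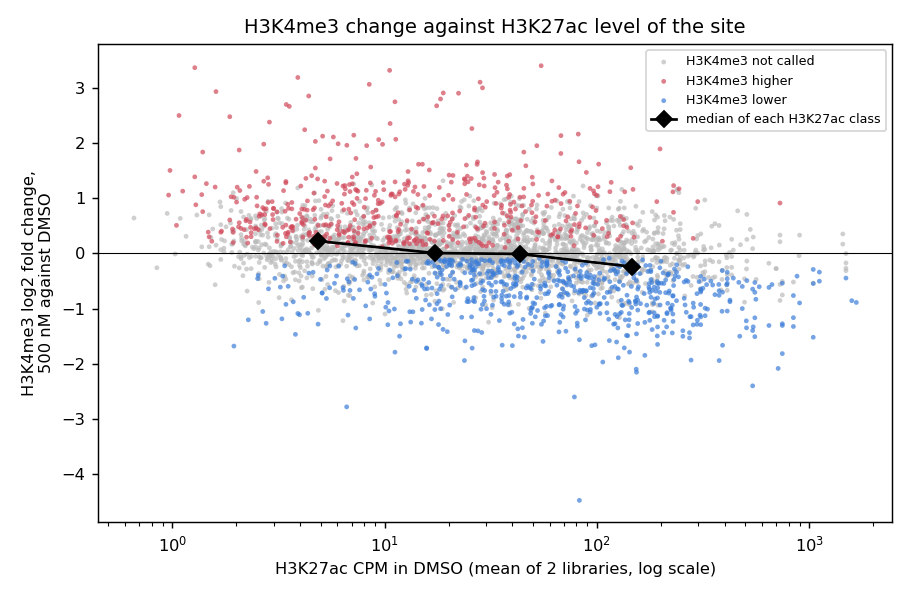
H3K4me3 log2 fold change at 500 nM against DMSO (vertical axis) against the H3K27ac level of the paired peak in DMSO (horizontal axis, CPM, log scale) at 3342 sites. Red points were called higher, blue lower and grey not called; black diamonds join the medians of the 4 classes, which go from 0.22 at the weakest H3K27ac to -0.24 at the strongest.

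The gap between the strongest and the weakest class was -0.46 in fitted log2 fold changes, and the single libraries show its direction. For the libraries, 2 CPM were added before log2 was taken, which shrinks changes at weak sites. Their values are thus not on the scale of -0.46. With each library set against the mean of all 6, the strongest class minus the weakest stood at 0.12 and 0.07 in the DMSO libraries and at 0.18 and 0.10 at 150 nM. It was -0.21 and -0.22 at 500 nM. The DMSO and 150 nM libraries overlapped, and both 500 nM libraries lay below all of them. Centring on the mean of all 6 sets the signs, so only the distance between libraries counts. The SD between replicates was 0.04 on the scale with 2 CPM added.

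**Figure D4:**
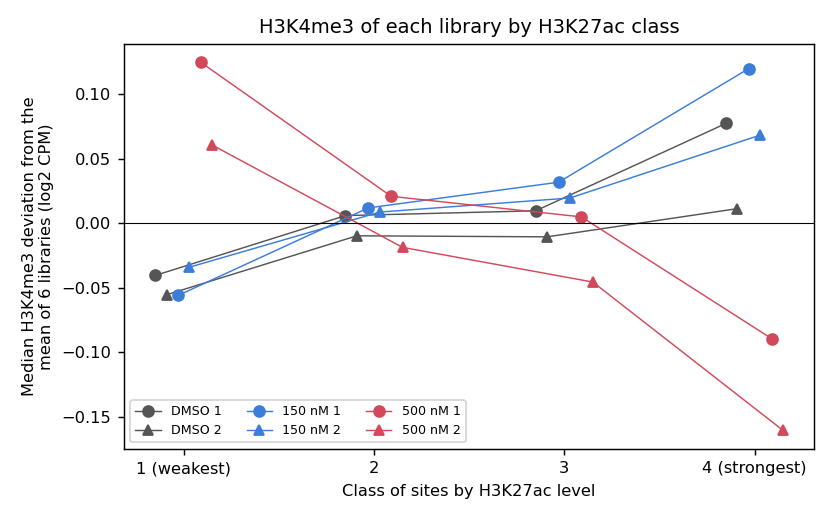
Median deviation of H3K4me3 in each library from the mean of the 6 libraries (log2 of CPM plus 2), by class of sites from the weakest to the strongest H3K27ac. Grey lines are DMSO, blue 150 nM and red 500 nM; the red lines cross the others, from 0.12 and 0.06 in the weakest class to -0.09 and -0.16 in the strongest.

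The gap kept its sign under each scaling, between -0.46 and -0.51, but the rise in the weakest class did not stand apart from the falls under all of them. With loess offsets, 16.5% of that class rose and 13.5% fell (median 0.00), against 2.51% and 46.3% in the strongest (median -0.51). The gap was -0.53 without the 438 sites on a promoter window, and -0.37 when H3K27ac was taken per length. The same order was seen among other peaks. Among peaks near gene ends with H3K27ac, rises fell from 26.98% in the weakest H3K27ac class to 6.02% in the strongest and falls grew from 9.37% to 32.1%, with a narrower span of medians, from 0.05 to -0.06. The sites with more H3K27ac also lay more often inside genes (60.0% in the weakest class, 79.3% in the strongest). The gap was -0.37 among sites inside genes alone.

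Some H3K27ac peaks hold many sites. The 22 with at least 4 sites, 3086 to 28754 bp long, had 93 tested sites, of which 31 fell (33.3%) and 4 rose (4.30%), where 19.8% and 15.0% of all tested sites did and 18.7% and 20.7% of all tested peaks. In the strongest of the 4 classes by H3K27ac level, shares were much like theirs, with 35.5% lower and 6.10% higher. No H3K27ac peak of the 22 held both a rise and a fall, and 9 held no fall. None of the 22 passed the test in H3K27ac, with log2 fold changes of -0.16 to 0.20 and adjusted p of at least 0.373. The longest H3K27ac peak paired with a site, 54021 bp on chromosome 3 at LINC01991, held 1586 H3K27ac CPM on average in DMSO and 1563 at 500 nM. H3K4me3 at its site chr3:187968062-187969827 averaged 11.95 CPM in DMSO and 6.59 at 500 nM (log2 fold change -0.86 ± 0.15, adjusted p = 3.89e-06).

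Of the H3K27ac peaks with 5 or more sites, a number chosen after the data were seen, there were 8. In CUX1, a homeodomain transcription factor, 4 of 6 tested sites fell (log2 fold changes of -1.82 to -0.51), and in CYTH1, an exchange factor for ARF GTPases, 4 of 6 (-1.05 to -0.34). In GALNT2, a glycosyltransferase, 3 of 5 fell, in DIP2C 2 of 5, and in PLEKHF2 1 of 5. In TPD52 1 of 5 rose. In CDK14, a cyclin-dependent kinase, none of 6 tested sites was called, and in ELF1, an ETS-family factor, none of 4.

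Read by gene, 11 genes held 10 or more sites. Over all tested peaks 20.7% rose and 18.7% fell, and over all tested sites 15.0% and 19.8%. In DIP2C, CUX1, CYTH1, GALNT2, PLCG2, ZEB2 and ELF1, some of these sites were already counted above by H3K27ac peak. DIP2C, with 23, had 2 higher and 5 lower of 22 tested, and FOXP1, a forkhead factor of B cells, 4 higher and 2 lower of 13. No site rose and 7 of 13 fell in CUX1, 6 of 11 in CYTH1, 6 of 10 in ETV6, an ETS-family repressor, 5 of 10 in GALNT2 and 3 of 10 in LINC03021. SIPA1L3 had 1 higher and 4 lower of 9, PLCG2 2 higher and 1 lower of its 10 inside the gene, ZEB2, a zinc finger repressor, 1 each of 7, and ELF1 no call among 7.

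The shares of calls were also read by position. Inside genes 14.4% of 2416 tested sites rose and 21.2% fell, and between genes 16.7% of 958 rose and 16.3% fell, with medians of -0.01 and 0.07. The difference was not tested. On a promoter window 15.9% of 435 rose and 23.7% fell, and elsewhere 14.9% of 2939 rose and 19.2% fell.

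Among the lists of B-cell genes, calls went both ways. A site belonged to a gene when it lay inside it or when an end of the gene was the nearest within 100 kb. For the regulators of germinal centre B cells, 14 of 20 genes had a site, and 6 of 38 tested sites rose and 7 fell (15.8% and 18.4%, median 0.11, against 20.7%, 18.7% and -0.01 over all tested peaks). For the B-cell receptor and its co-receptors, 5 of 25 sites rose and 4 fell (median 0.08), and for migration and adhesion 2 of 10 rose and 2 fell (median 0.22). For chromatin genes 2 of 11 rose and 4 fell (median -0.02), and for survival and proliferation 1 of 6 rose and 2 fell (median 0.23). No H3K27ac peak of these lists was called. The smaller lists have too few sites to set their shares against those of all peaks.

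Single genes of the lists changed by more. IRF8, a transcription factor that shapes the germinal centre programme, fell at chr16:85908589-85912394 from 48.5 and 43.7 CPM in DMSO, 46.9 and 45.8 at 150 nM, to 19.9 and 18.1 at 500 nM (log2 fold change -1.28 ± 0.08, adjusted p = 4.99e-21). Its H3K27ac there was 45.1 and 36.5 CPM in DMSO and 39.4 and 44.2 at 500 nM, and the groups overlapped. IRF4, a factor of activated and plasma-cell differentiation, went the other way at the much weaker site nearest to it, chr6:446839-447913, with 3.43 and 3.14 CPM in DMSO and 6.04 and 7.46 at 500 nM (log2 fold change 1.02 ± 0.21, adjusted p = 9.42e-05). TCF3, the E-protein E2A, fell nearest to it at chr19:1667149-1670037 from 40.2 and 42.1 to 21.9 and 20.0 CPM (log2 fold change -0.96 ± 0.08). EBF1, a factor of B-cell commitment, fell at chr5:159051449-159053475 from 22.3 and 18.2 to 14.5 and 10.7 CPM (log2 fold change -0.67 ± 0.12). Another of its 4 tested sites rose, at chr5:158819405-158820090 (0.84 ± 0.28, adjusted p = 0.0132). ETS1, an ETS-family factor, rose at 2 of 3 tested sites, and IKZF1, the factor Ikaros, had 1 higher and 2 lower of 4.

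PRDM1, the repressor that drives plasma-cell fate, had 16.5 and 15.1 CPM in DMSO and 16.8 and 18.2 at 500 nM at chr6:106097275-106099001 (log2 fold change 0.14 ± 0.11, adjusted p = 0.332), and the groups nearly met. BACH2, a repressor that holds B cells from that fate, averaged 22.3 ± 3.28 CPM in the DMSO libraries at its strongest site, against 25.2 ± 0.234 with 500 nM (SD, n = 2, edgeR adjusted p = 0.162), and its other site rose (log2 fold change 0.55 ± 0.20, adjusted p = 0.0251).

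SYK, the kinase that relays the B-cell receptor signal, fell at chr9:90827056-90830277, on the window printed above, from 68.8 and 61.7 CPM in DMSO, 66.8 and 65.1 at 150 nM, to 48.2 and 45.7 at 500 nM (log2 fold change -0.48 ± 0.06, adjusted p = 4.79e-10). Of the migration genes, some fell and some rose. CCR6, a chemokine receptor, rose (log2 fold change 0.47), as did the weak site nearest to RGS1, a regulator of G-protein signalling (1.38). The RGS1 site lies inside another gene, LOC105371664. CXCR5, the receptor for CXCL13, has 2 sites, of which 1 stood at 0.20 without a call and the other fell, at chr11:118868222-118871307, from 25.3 and 25.4 to 17.1 and 15.2 CPM (log2 fold change -0.64 ± 0.10). P2RY8, a receptor that confines germinal centre B cells, fell at chrX:1549092-1551238 from 34.1 and 32.3 to 16.6 and 12.9 CPM (log2 fold change -1.16 ± 0.09). CXCR4, the receptor for CXCL12, had weak H3K4me3 in strong H3K27ac, 2.94 and 1.67 CPM in DMSO against 3.06 and 2.96 at 500 nM (adjusted p = 0.345).

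BCL2, the survival factor that many germinal centre lymphomas express, lay in the H3K27ac peak with the highest level of any site. The H3K27ac peak of 37192 bp held on average 1666 CPM in DMSO and 1677 at 500 nM (log2 fold change 0.01 ± 0.06). H3K4me3 at its site chr18:63136569-63139187 was 64.2 and 59.4 CPM in DMSO, 60.1 and 58.8 at 150 nM, and at 500 nM 34.9 and 31.8 (log2 fold change -0.89 ± 0.06, adjusted p = 2.50e-18). Of the other BCL2 sites 1 rose, at chr18:63208478-63210361 (log2 fold change 0.43 ± 0.14, adjusted p = 0.0134), 1 was not called (0.64 ± 0.30) and 1 was not tested. The H3K27ac means at the site that fell lay within the spread of the replicates, while both 500 nM libraries of H3K4me3 lay far below the rest.

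Of the chromatin genes, EHMT1, a methyltransferase for lysine 9 of histone H3, had 3 of 4 sites lower, the strongest at chr9:137665393-137668683 with 28.2 and 25.8 CPM in DMSO and 11.3 and 12.3 at 500 nM (log2 fold change -1.21 ± 0.10). KDM4B, a Jumonji demethylase of lysine 9, rose at chr19:5130837-5131529 from 1.96 and 1.57 to 3.23 and 4.80 CPM (log2 fold change 1.14 ± 0.29, adjusted p = 0.000973), and DESeq2's Wald test did not call it (1.17). KDM4C, of the same family, held one of the strongest sites, 160 and 162 CPM in DMSO and 158 and 159 at 500 nM (adjusted p = 0.678). KDM2B, a Jumonji demethylase that binds CpG islands, fell slightly on the window printed above, from 90.2 and 87.7 to 82.0 and 78.9 CPM (log2 fold change -0.14 ± 0.05, adjusted p = 0.00875), and lost the call without DMSO replicate 1 (-0.13) or 500 nM replicate 2 (-0.12). Another of its 4 tested sites rose, at chr12:121535270-121538504 (log2 fold change 0.25 ± 0.04, adjusted p = 2.26e-06).

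H3K27ac changed at few sites. At 500 nM against DMSO, 28 of the 3230 tested H3K27ac peaks of sites rose and 13 fell, 1.27% in all, where 0.923% of all 54037 tested H3K27ac peaks were called (0.692% higher and 0.231% lower). The median log2 fold change was -0.02, against -0.004 over all. On a promoter window 1 of 431 tested H3K27ac peaks rose and 0 fell, with a median of 0.03. Elsewhere 27 of 2812 rose and 13 fell, with a median of -0.03. The calls numbered 41 for all sites together. The count moved with the libraries used: it was 17 without DMSO replicate 1, 10 without DMSO replicate 2, 210 and 201 without 150 nM replicate 1 or 2, 11 and 13 without 500 nM replicate 1 or 2, 127 with a term for the libraries that stood apart and 240 with the 4 libraries of the contrast alone.

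TBC1D16 rose most in H3K27ac, from 17.9 and 19.9 CPM in DMSO, with 11.7 and 11.3 at 150 nM, to 54.3 and 57.3 at 500 nM (log2 fold change 1.56 ± 0.15, adjusted p = 1.83e-10). GSDME, the pore-forming protein gasdermin E, had 95.2 and 105 CPM in DMSO, 124 and 118 at 150 nM, and at 500 nM 186 and 178 in a peak of 6462 bp (log2 fold change 0.86 ± 0.09, adjusted p = 1.42e-08). SLC39A9 went from 22.5 and 22.1 to 45.0 and 39.1 CPM (log2 fold change 0.92 ± 0.15). At these 3 peaks, the 500 nM libraries lay above the other 4.

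ARSG, an arylsulfatase, went from 22.99 and 26.1 to 43.9 and 41.3 CPM (log2 fold change 0.79 ± 0.14) and lost the call without DMSO replicate 1 (0.70) or 500 nM replicate 1 (0.75). Falls in H3K27ac were smaller. TBC1D22A went from 74.0 and 82.6 to 46.3 and 52.4 CPM (log2 fold change -0.67 ± 0.12, adjusted p = 0.000324) and lost the call without DMSO replicate 2 (-0.58) or 500 nM replicate 1 (-0.58). CSTPP1 went from 166 and 170 to 118 and 110 CPM (log2 fold change -0.56 ± 0.09) and lost it without 500 nM replicate 2 (-0.51). The peaks next to LOC105372084 (-0.57) and TRV-TAC3-1 (-0.54) lost the call without any of the 4 libraries of the contrast, with values of -0.61 to -0.53 and -0.55 to -0.51.

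Where H3K4me3 was called, the marks moved the same way more often than not, but mostly only H3K4me3 moved past the test. Of the 498 pairs with higher H3K4me3, 21 also had higher H3K27ac and none lower, and the median H3K27ac change was 0.13, above 0 at 65.3%. Of the 663 with lower H3K4me3, 7 had lower and 2 higher H3K27ac, and the median was -0.07, above 0 at 34.8%. Of the 2181 with H3K4me3 not called, 8 had higher and 7 lower H3K27ac, and the median was -0.03, above 0 at 44.0%. The falls thus lay nearer to these uncalled sites than the rises did. Over all tested H3K27ac peaks, 0.692% were higher and 0.231% lower. Across 3342 sites the Spearman correlation of the changes was 0.24.

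At LOC124900954, H3K27ac went from 10.3 and 12.03 CPM in DMSO to 25.4 and 25.2 at 500 nM (log2 fold change 1.17 ± 0.19), next to 2.75 for H3K4me3. SERPINH1, a collagen chaperone, rose in both marks at the site nearest to it, chr11:75554369-75555418, with H3K4me3 of 0.898 and 1.28 CPM in DMSO and 5.36 and 4.09 at 500 nM (log2 fold change 2.14 ± 0.31) and H3K27ac of 8.51 and 5.82 against 18.6 and 19.0 (1.40 ± 0.22, without a call when DMSO replicate 2 was left out, 1.14). At LOC105372084 H3K4me3 went from 2.86 and 1.67 CPM to 0.170 and 0, near the limit of counting. The only 2 sites called in both marks with opposite directions lie in CD81, a tetraspanin of the cell surface, and share 1 H3K27ac peak, 249 and 278 CPM in DMSO against 327 and 341 at 500 nM. All 3 of these calls were close to the threshold (adjusted p = 0.0262, 0.0468 and 0.0302), and DESeq2's Wald test made none of them.

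**Figure D5:**
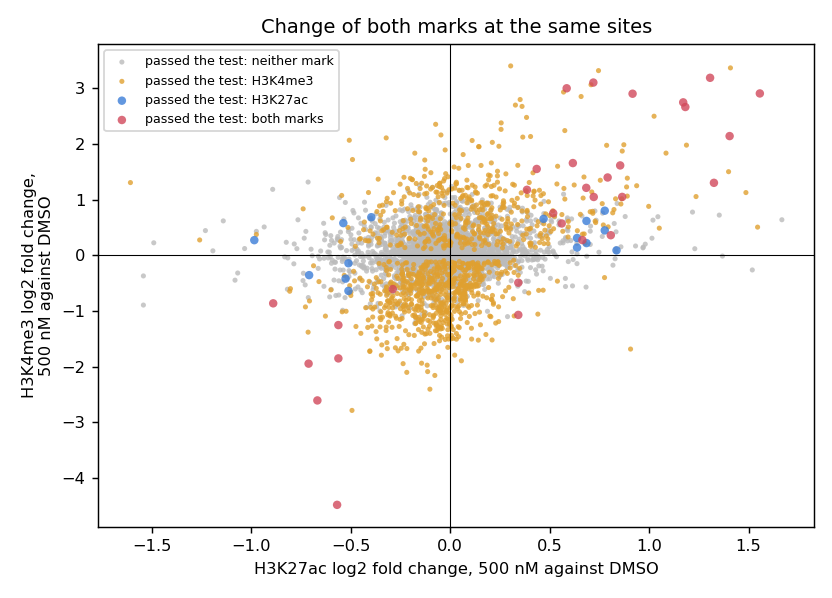
H3K4me3 log2 fold change (vertical axis) against H3K27ac log2 fold change (horizontal axis) at 500 nM against DMSO for 3342 sites. Grey points passed the test for neither mark, yellow for H3K4me3, blue for H3K27ac and red for both; 21 red points lie in the upper right, 7 in the lower left and 2 in CD81 in the lower right.

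Whether the marks changed unequally was tested with an interaction of mark and treatment over the 12 libraries. This was so at 404 of the 3342 pairs (12.1%), against 9.14% of all 15988 pairs of H3K4me3 and H3K27ac peaks. Without the sites on a promoter window it was so at 367 of 2911 pairs. The H3K4me3 change was below that of H3K27ac at 288 of the 3342 pairs, against 1165 of all 15988 (7.29%). It was above it at 116 of the 3342, against 297 of all 15988 (1.86%). The count was 230 without DMSO replicate 1 of H3K4me3 and 265 without DMSO replicate 1 of H3K27ac. The fit gave both marks 1 shared spread per pair, which limits its p-values. Over all peaks, replicates differed more in H3K27ac (chi-square per degree of freedom 1.24 to 2.31) than in H3K4me3 (0.929 to 1.17). TRAK1, an adaptor that links mitochondria to motor proteins, was among the clearest: at chr3:42192629-42196513 H3K4me3 went from 17.1 and 14.6 CPM in DMSO, with 15.7 and 13.2 at 150 nM, to 54.8 and 57.9 at 500 nM, while H3K27ac was 66.9 and 68.4 in DMSO and 74.4 and 67.1 at 500 nM, a difference of log2 changes of 1.75 ± 0.12 (adjusted p = 5.18e-10).

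At 150 nM no site was called for either mark. For H3K4me3, edgeR called 0 of 3374 sites and 0 of all 20402 peaks, DESeq2's Wald test also called 0 sites, and 187 sites (5.54%) had an unadjusted p under 0.05, against 4.66% of all peaks. For H3K27ac, 0 sites and 1 of 54037 peaks (0.00185%) were called, and DESeq2's test called 0 sites. An unadjusted p under 0.05 was seen at 118 of 3230 (3.65%), against 3.94% of all. Without 150 nM replicate 1 of H3K27ac, 91 peaks were called, 81 of them lower.

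Between the doses, at 500 nM against 150 nM, 491 sites rose and 756 fell in H3K4me3 (all tested peaks: 20.5% higher and 18.6% lower), and without 150 nM replicate 1 the calls numbered 821 in all. This comparison shares the 500 nM libraries with that against DMSO. The sites called in the same direction in both were 967, which is 82.4% of the calls against DMSO and 77.5% of those against 150 nM. The PLCG2 site had a log2 fold change of 3.41 against 150 nM, SLC39A9 3.47, AHNAK -2.86 and TBC1D22A -2.78. For H3K27ac, 39 peaks of sites rose and 18 fell (1.21% and 0.557% of 3230, where 1.09% and 0.185% of all tested peaks did), with TBC1D16 at 2.28 ± 0.16. These 57 calls became 292 and 113 without 150 nM replicate 1 or 2, and 23 and 20 without 500 nM replicate 1 or 2. In DENND5B, an exchange factor for Rab proteins, H3K27ac fell from 73.3 and 74.1 CPM at 150 nM to 51.8 and 46.5 (log2 fold change -0.58 ± 0.11, adjusted p = 0.00131), a call lost without 500 nM replicate 2 (-0.51).

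Peaks just inside and just outside the limits of the rule are given as a description. The longest site, 3990 bp in FNBP1, had an H3K4me3 log2 fold change of -0.23, and the shortest peak left out for length, 4005 bp in PRRC2B, -0.13. The site nearest to a gene end, 5005 bp from that of SGK1, had 0.62, and the farthest peak left out for distance, 4999 bp from ZNF846, -0.10.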

How the data were processed

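ChIP-seq of H3K4me3 and H3K27ac in OCI-Ly1 was used as deposited: read counts per consensus peak, 1 table per mark, not normalized. Per the file headers, the authors counted with featureCounts 2.0.1, unstranded, with multiple overlaps allowed and an overlap fraction of 0.2. The headers record paired-end counting, whereas the protocol in the labels is single-end at 50 bp; whether reads or fragments were counted is thus not known. The submitters' processing notes name GRCh38, Trim Galore 0.6.7, BWA 0.7.17-r1188, Picard 2.27.4, MACS2 2.2.7.1, deepTools 3.5.1 and edgeR 3.42.4. How the consensus was made is not given in the sources used here. Column Length of the deposited tables was not used, and 1 was added to each deposited start, as the lowest is 0. Gene ends, promoter windows and sequences came from RefSeq tables of GRCh38.p14 with 59792 genes, and every peak's gene was named from them.

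Groups and replicate numbers came from sample titles. The members, gene lists and tests were chosen with earlier results of these data known. For each mark the 6 libraries entered 1 fit in edgeR 4.0.16 (R 4.3.3) after filterByExpr and TMM scaling (glmQLFit, glmQLFTest, Benjamini-Hochberg adjustment over all tested peaks, threshold 0.05). Standard errors were taken from the F statistic. Unequal change of the marks was fitted as mark by treatment over 12 libraries, with 1 spread per pair shared by both marks. CPM are relative to reads in tested peaks, so a change of all peaks alike is not measured. Intervals of shares cover counting error only.

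Named sites had an adjusted p under 0.05, an abundance above the median of tested sites and both 500 nM libraries beyond both DMSO libraries. Of these the 8 largest rises and falls in H3K4me3 and the 4 in H3K27ac were taken. Others were the strongest sites per kb, the list genes' sites with most H3K4me3, the sites called in both marks and the 5 clearest unequal changes. Alternatives were other scalings (DESeq2 1.42.0 size factors, total count, loess offsets), no filter, a mean count of at least 50, DESeq2's Wald test, a replicate block, 4 libraries only, leaving out each library, a distance of 10 kb, an overlap of 50% of both peaks and, added after seeing the data, the classes by H3K27ac and leaving out sites on a promoter window. Matplotlib 3.10.9 drew the figures.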

Additional observations from a re-analysis of the deposited data

Results flagged for a closer look

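At 5 sites the marks changed unequally between 500 nM and DMSO with the smallest adjusted p among all sites in the interaction of mark and treatment. The H3K4me3 change minus the H3K27ac change, on the log2 scale, was 3.10 at PLCG2 (chr16:81841738-81843324), 2.41 at ANKRD28 (chr3:15794763-15798167) and 1.75 at TRAK1 (chr3:42192629-42196513). It was -1.93 at TBC1D22A (chr22:46773855-46777500) and -1.97 at BTG4 (chr11:111434732-111437207). Both libraries of each treatment showed the direction at each site for H3K4me3.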

How the results depend on the processing

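All counts in this paragraph are sites or H3K27ac peaks of sites that passed the test, and the cause of each move was not tested unless fewer sites or libraries entered. Of 61 called results for single sites, 16 lost the call with DESeq2's Wald test and 21 without some library, and none reversed. DESeq2's Wald test gave 502 H3K4me3 calls at 500 nM against DMSO and 529 against 150 nM, and 14 and 15 for H3K27ac. A replicate block gave 117 and 115 H3K27ac calls, the 4 libraries of a contrast alone 240 and 34, and a term for the H3K27ac libraries that stood apart 127 and 96. The block moved no other count by more than 1.5 times. Same-numbered libraries of different treatments had correlated deviations of 0.02 to 0.07 for H3K4me3 and 0.007 to 0.14 for H3K27ac, so the numbers were not taken to pair them. A distance of over 10 kb left 25 and 37 H3K27ac calls, and an overlap of 50% of both peaks 467 and 506 H3K4me3 calls, 17 and 20 H3K27ac calls, 123 unequal pairs and 66.7% of sites inside genes.

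Where a library was left out, the lone one of its group was taken to vary like the other groups. Leaving out 1 library at a time gave 844 to 1138 H3K4me3 calls at 500 nM against DMSO, 0 to 1 at 150 nM and 821 to 1242 between the doses, and 10 to 210, 0 to 91 and 20 to 292 H3K27ac calls, with 230 to 574 unequal pairs. The median H3K4me3 log2 fold change of sites ran from -0.046 to 0.0475 at 500 nM against DMSO, 0.00724 to 0.0628 at 150 nM and -0.0672 to 0.0163 between the doses, and that of H3K27ac from -0.041 to -0.00928, -0.0275 to 0.00998 and -0.0201 to -0.00602. The H3K4me3 medians for 500 nM against DMSO and against 150 nM were 0.0422 and 0.0177 with total count scaling, -0.159 and -0.176 with loess offsets. Keeping peaks that averaged 50 reads or more gave -0.0508 and -0.0528. The H3K27ac median at 500 nM against DMSO was -0.0364 with total count scaling, -0.0460 with that count limit and -0.00305 with the stricter overlap. At 150 nM it was -0.0333 with that limit and -0.00620 with the stricter overlap, and between the doses -0.0254 with total count scaling and -0.0248 without a filter.

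The gap in H3K4me3 change between strong and weak H3K27ac was -0.509 with loess offsets and -0.538 to -0.426 leaving out 1 library at a time. It was -0.372 by H3K27ac per kb, -0.388 by H3K27ac peak length, -0.396 with 1 site per H3K27ac peak, -0.399 with the stricter overlap, -0.533 without promoter windows (chosen after seeing the data), -0.385 with the H3K27ac peak away from gene ends and -0.367 inside genes. Depth also limits single sites, with a median of 43.25 reads.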
